A study of Rattus norvegicus with 10 samples.

Results

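Endothelial cells line the lumen of every vessel, and 10 genes that mark their identity were followed in aorta samples of 2 inbred rat strains, BN (Brown Norway) and LOU, labelled as abdominal aorta. The 10 genes were Pecam1, Cdh5, Tek, Tie1, Kdr, Flt1, Vwf, Eng, Acvrl1 and Emcn, and every probe set annotated with 1 of these symbols was taken. That gave 10 probe sets for 8 genes, out of 15866 probe sets other than controls that stood for 10411 named genes. Flt1 had 3 probe sets and the other 7 genes had 1 each, and no probe set carried the symbol Cdh5 or Tek, so both are not analysed here. Each strain had 5 Affymetrix arrays of total RNA and no treatment. Age was labelled as 5 weeks throughout, with housing up to 18 weeks in the growth notes, and no sex was stated. The series title asks for the genetic basis of arterial traits of the BN rat. Whether any rat gave more than 1 array was not stated, so p-values measure only the spread between these arrays.

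The members fall into 4 groups by role. Kdr and Flt1 encode the VEGF receptors VEGFR2 and VEGFR1. Kdr carries most of the growth and permeability signal, and Flt1, which also exists as a secreted form, binds VEGF tightly and limits it. Tie1 and Tek encode the Tie receptors, of which Tek binds the angiopoietins and Tie1 has no angiopoietin of high affinity and modulates Tek. Acvrl1 encodes ALK1, the endothelial type I receptor for BMP9 and BMP10, and Eng encodes endoglin, its co-receptor. Mutations of either cause hereditary haemorrhagic telangiectasia in humans. The others are products of the cell surface or of secretory granules. Pecam1 (CD31) and Cdh5 (VE-cadherin) join neighbouring cells, Emcn encodes a sialomucin of the luminal surface, and Vwf encodes von Willebrand factor, which is stored in Weibel-Palade bodies and captures platelets. In arteries these transcripts are known to come mainly, but not only, from a single cell layer. A further share comes from small vessels in the outer wall and the surrounding fat, and platelets also carry the products of Vwf and Pecam1.

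The values are linear array signals, scaled by the authors so that the trimmed mean was near 200.05 on every array. A probe set counted as above background on an array when its signal passed the level under which 95% of the array's 45 bacterial controls lay, 21.2 to 49.2 over the arrays. Median signals ran from 97.4 to 105, and 69.7% to 81.9% of probe sets were above background. The brightest probe set of each of the 8 measured members was above background on all 10 arrays, so endothelial RNA was detected in every sample. The same held for 27 of 31 other endothelial genes measured, and Sox17, an arterial endothelial transcription factor, was above background on no array. Several arrays stood apart in other cells' markers. BN array 3 had the highest mean of 7 Schwann cell and nerve markers, 0.92 on the log2 scale relative to the mean of all arrays. BN array 2 followed at 0.79. LOU array 1 had the highest means of 7 macrophage markers (1.11) and 7 lymphocyte markers (1.66). Differences of the members, the correlations they turn on and several of the marker lists are also given without BN array 3 and LOU array 1.

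RefSeq promoters from the GRCr8 assembly, which was made from a BN rat, were listed for 5 of the 10 members: Tie1, Kdr, Flt1, Eng and Emcn. Each covers 250 bases before and 50 after the start site. Factors of the ETS family, which bind a GGAA core, are known regulators of endothelial genes, so the letters GGAAG were searched on both strands. Promoters are shown for the receptor and co-receptor genes with an entry, Tie1, Flt1, Eng and Kdr, since the results are ordered by these roles. Capitals mark GGAAG or its reverse complement CTTCC, and all 4 are written 5′ to 3′ on the gene's strand. The Tie1 promoter lies at chr5:137304932-137305231 on the minus strand, Flt1 at chr12:12333180-12333479 on the plus strand, Eng at chr3:36332029-36332328 on the plus strand and Kdr at chr14:32571813-32572112 on the plus strand.
Tie1: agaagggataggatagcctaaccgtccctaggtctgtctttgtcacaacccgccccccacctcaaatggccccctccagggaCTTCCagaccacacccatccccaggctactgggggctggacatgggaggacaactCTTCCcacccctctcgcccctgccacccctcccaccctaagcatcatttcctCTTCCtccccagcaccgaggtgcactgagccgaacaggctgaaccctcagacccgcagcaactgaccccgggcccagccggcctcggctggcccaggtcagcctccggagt
Flt1: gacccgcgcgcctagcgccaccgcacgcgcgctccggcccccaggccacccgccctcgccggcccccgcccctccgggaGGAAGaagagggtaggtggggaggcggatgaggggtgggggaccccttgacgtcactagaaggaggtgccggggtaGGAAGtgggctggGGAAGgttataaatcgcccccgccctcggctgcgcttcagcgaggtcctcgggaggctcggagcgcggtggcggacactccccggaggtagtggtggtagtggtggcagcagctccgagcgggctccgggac
Eng: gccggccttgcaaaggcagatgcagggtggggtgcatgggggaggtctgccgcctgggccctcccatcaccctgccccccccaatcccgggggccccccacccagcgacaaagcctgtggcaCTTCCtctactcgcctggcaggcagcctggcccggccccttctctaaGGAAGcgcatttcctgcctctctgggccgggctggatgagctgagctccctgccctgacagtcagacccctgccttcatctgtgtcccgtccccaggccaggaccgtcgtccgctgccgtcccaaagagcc
Kdr: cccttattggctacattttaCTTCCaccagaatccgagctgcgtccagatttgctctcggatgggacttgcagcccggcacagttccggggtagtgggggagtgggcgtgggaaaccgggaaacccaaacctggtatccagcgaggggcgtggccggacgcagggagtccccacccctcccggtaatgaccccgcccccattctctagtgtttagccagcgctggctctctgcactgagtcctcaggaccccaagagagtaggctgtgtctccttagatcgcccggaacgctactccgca
GGAAG occurred 3 times in the Tie1 promoter, 3 times in Flt1, 2 times in Eng, 2 times in Emcn and 1 time in Kdr. It was present in all 5 promoters, and 70.1% of 27457 rat promoters of the same length also held it, with a mean of 1.32 matches in a promoter. The GATA motif AGATAA, another motif linked to endothelial genes, was in 0 of the 5 and in 11.3% of all promoters. GGGCGG, the core of an SP1 site, was in 3 of the 5 (Tie1, Kdr and Flt1) and in 34.9% of all, and both motifs were also searched on either strand and can share letters with a GGAAG match. GC content ran from 47% in Emcn to 72.7% in Flt1, against a median of 52.3% over all promoters. A match is a description of these letters and not evidence of a bound site.

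Both VEGF receptor genes were measured. Kdr gave signals of 324.8, 403.1, 176.7, 235.3 and 193.9 on BN arrays 1 to 5, against 296.8, 190.9, 126.9, 154.7 and 188.2 on LOU arrays 1 to 5. BN arrays 1 and 2 and LOU array 1 were the highest of the 10, and the strains overlapped. Means were 267 ± 95.4 in BN and 192 ± 64.5 in LOU (SD, n = 5 each), a log2 difference of 0.47 (SE 0.28, 95% interval −0.16 to 1.10). This was the largest difference in size among the members, and it did not pass the test across all probe sets (limma adjusted p = 0.524). In whole-vessel RNA such as this, fewer cells of a type and less RNA per cell cannot be told apart.

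The 3 probe sets of Flt1 did not move as 1. The brightest, 1369087_at, read 146.2, 117.1, 74.2, 102.9 and 113.8 in BN and 97.3, 128.2, 95.2, 69.9 and 97.1 in LOU. Its BN values spread around the LOU values, with BN array 3 near the bottom, and the log2 difference was 0.18 (SE 0.21, adjusted p = 0.758). 1370492_a_at gave 75.1, 77.6, 35.0, 58.2 and 33.9 in BN and 74.7, 56.6, 70.2, 60.6 and 68.5 in LOU. BN arrays 3 and 5 fell below every LOU array, the other 3 lay among or above them, and the log2 difference was −0.32 (SE 0.26, adjusted p = 0.63). The dimmest, 1377113_at, was above background on 3 arrays of each strain and differed by 0.01 (SE 0.28, adjusted p = 0.995). Within strains, 1369087_at correlated with 1377113_at at r = 0.71 over the 10 arrays and with 1370492_a_at at r = 0.45, given as a description. Which Flt1 transcript forms each probe set reads was not analysed here.

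Tie1 was the steadiest member. It gave 287.7, 304.9, 190.1, 254.1 and 278.7 in BN, against 264.8, 304.5, 232.1, 223.6 and 207.5 in LOU. All values but that of BN array 3 lay between 207.5 and 304.9, so the strains overlapped almost wholly. Means were 263 ± 44.7 in BN and 247 ± 38.6 in LOU (n = 5 each), a log2 difference of 0.09 with a 95% interval of −0.28 to 0.45 (limma adjusted p = 0.853). Its spread between arrays of a strain was 0.25 (pooled SD, log2), close to the median of 0.26 over 7370 genes above background on all arrays. The other 7 measured members all had a larger spread than that median, up to 0.65 for Vwf.

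ALK1 and its co-receptor differed in opposite directions without passing the test. Acvrl1 gave 283.1, 240.1, 186.9, 303.4 and 283.1 in BN and 226.7, 288.5, 299.5, 353.6 and 366.8 in LOU. LOU arrays 4 and 5 were above every BN array, and LOU array 1 was below all BN arrays except array 3. The log2 difference was −0.24 (SE 0.18, 95% interval −0.65 to 0.16, adjusted p = 0.605). Eng gave 384.7, 483.8, 246.4, 258.5 and 318.9 in BN and 232.3, 429.3, 295.8, 263.0 and 246.3 in LOU. BN array 2 and LOU array 2 were the highest, and the log2 difference was 0.20 (SE 0.23, adjusted p = 0.758).

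Of the junction and surface genes, Pecam1 gave 258.9, 132.8, 86.1, 155.8 and 165.5 in BN and 161.0, 240.2, 124.0, 150.8 and 226.7 in LOU. Its highest and lowest signals of all 10 arrays were both from BN, on arrays 1 and 3. The log2 difference was −0.22 (SE 0.29, adjusted p = 0.788). Emcn gave 431.8, 369.1, 330.7, 441.8 and 388.2 in BN and 403.0, 503.3, 185.3, 304.1 and 249.3 in LOU. BN values stayed within 330.7 to 441.8, and LOU values lay on both sides of that range, with 3 arrays below it and LOU array 2 above it. The log2 difference was 0.33 (SE 0.25, 95% interval −0.23 to 0.89, adjusted p = 0.611).

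Vwf varied most. It gave 420.8, 463.9, 229.5, 374.5 and 462.0 in BN, against 219.4, 987.5, 371.8, 323.7 and 321.5 in LOU. LOU array 2 was more than any other array, LOU array 1 was the lowest, and signals spanned 4.5-fold over the 10 arrays. The means were 390 ± 96.9 in BN and 445 ± 308 in LOU, with a log2 difference of −0.02 (SE 0.37, 95% interval −0.86 to 0.81, adjusted p = 0.987). Without LOU array 2 the log2 difference was 0.32 (adjusted p = 0.671) and without BN array 3 it was 0.16, so its sign turned with either array.

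**Figure D1:**
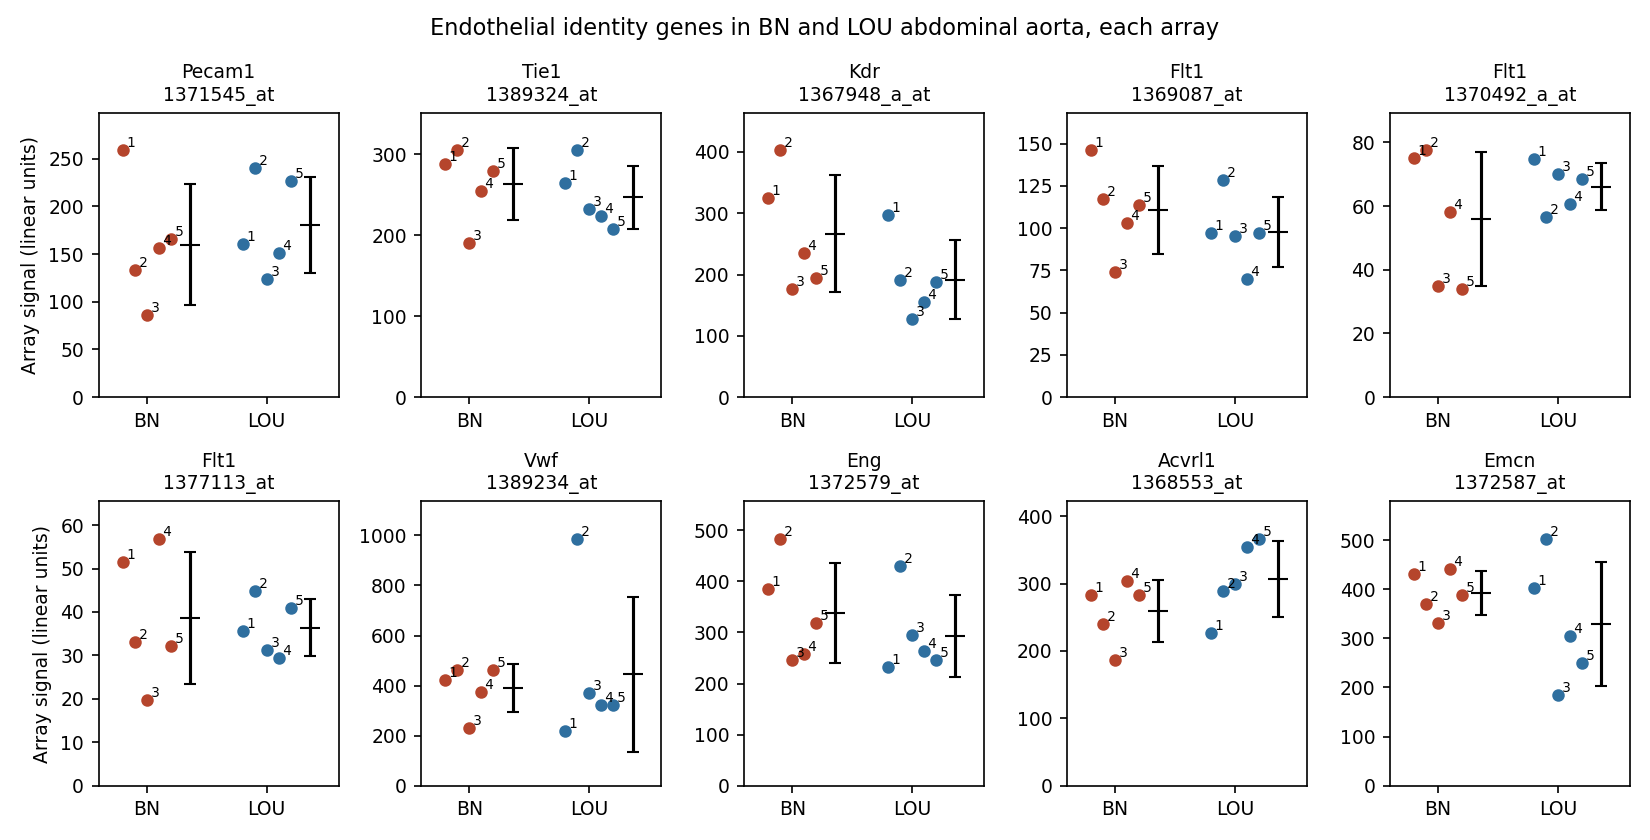
Array signal (linear units, axes from 0) of each of the 10 probe sets of the 8 measured genes. Points are the 5 BN and 5 LOU arrays with their replicate number, and the bars beside them are the mean and SD. The strains overlap in every panel, BN array 3 is the lowest BN array in 9 of 10 panels, and the Vwf signal of 987.5 on LOU array 2 stands above all others.

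With limma and a threshold of 0.05 on the adjusted p, 0 of the 10 member probe sets were called, where 0.788% of all 15866 probe sets were (0.246% higher and 0.542% lower in BN). At an unadjusted p of 0.05 also 0 passed, against 13.3% of all probe sets, and in 0 of 10 did the strains' signals not overlap, against 4.18% of all. With a background of 0.788%, a count of 0 among 10 probe sets is no result about the members. Read from the brightest probe set, the log2 difference was above 0 for 5 of the 8 genes and below 0 for 3, and its median was 0.13. Over all 10411 genes the median was −0.02 and 47.6% were positive. The 95% intervals are those of the main fit, unadjusted, and reflect only the spread between these arrays. For 9 of the 10 probe sets the 95% interval lay within a 2-fold difference either way, and for Kdr it reached 2.14-fold higher in BN. Without BN array 3 and LOU array 1, Kdr differed by 0.77 (adjusted p = 0.262), Emcn by 0.49 (0.49), Tie1 by 0.23 (0.545), the brightest Flt1 probe set by 0.32 (0.532) and Pecam1 by −0.05 (0.955), with limma's adjusted p in parentheses. Vwf, Eng and Acvrl1 differed by −0.04, 0.22 and −0.24 in that setting, and 0 members passed. The rise of Kdr is fixed by construction, since its lowest BN array and its highest LOU array were those left out. BN array 3 was the lowest BN array for all 8 genes, while LOU array 2, highest in LOU for 6 of them, was kept.

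**Figure D2:**
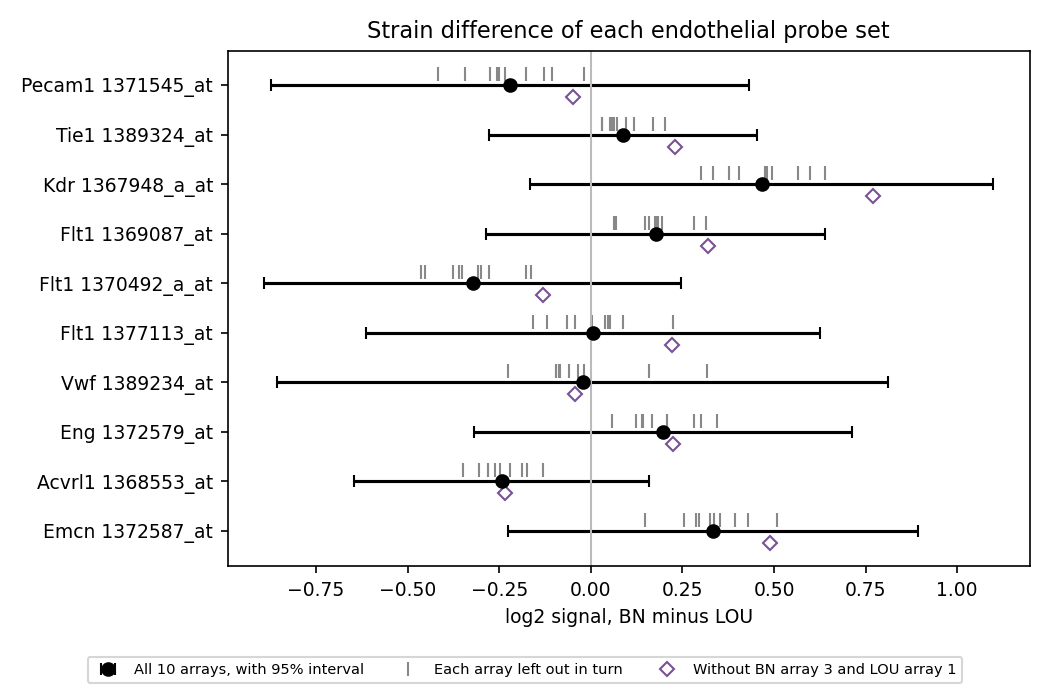
Log2 difference in signal, BN minus LOU, for each member probe set. Filled points with bars are the estimates from all 10 arrays with 95% intervals, grey ticks the estimates with each array left out in turn, and open diamonds those without BN array 3 and LOU array 1. All 10 intervals include 0, and only the interval of Kdr reaches past 1.

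For each of the 8 genes the pooled SD between arrays of a strain was larger than the size of the log2 difference between the strains. BN array 3 had the lowest BN signal for 8 of the 8 genes, while over all 10411 genes it was the lowest BN array for 22%. The deviations of the 8 genes from the BN mean on that array ran from −0.24 for Emcn to −0.80 for Pecam1 (log2). LOU array 2 had the highest LOU signal for 6 of the 8, against 15.3% of all genes. Kdr and Acvrl1 were the exceptions, highest on LOU arrays 1 and 5. On BN array 3 the 7 Schwann cell and nerve markers, of which 5 were above background on all arrays and none was at 0, summed to a signal of 2607. That sum ran from 1180 to 2607 over BN arrays and from 880.4 to 1098 over LOU arrays. BN array 2, the highest BN array for 4 of the 8 genes, had a sum of 1906. The part of nerve in the low endothelial signals of BN array 3 was not tested. BN array 3 also had the lowest BN means of smooth muscle markers (−0.09) and fibroblast markers (−0.55).

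**Figure D3:**
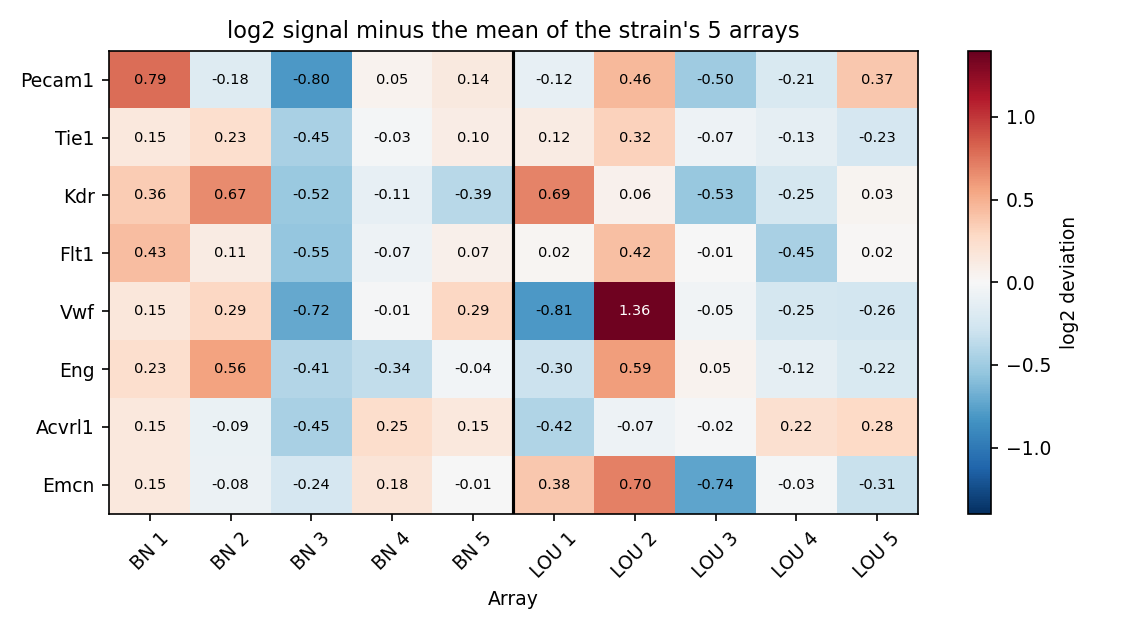
Deviation of each gene's log2 signal from the mean of its strain's 5 arrays, brightest probe set of each gene in rows and arrays in columns. Red is above and blue below the strain mean. The BN 3 column is negative for all 8 genes, and the LOU 2 column is positive for 7 of them, with 1.36 for Vwf.

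Correlations between members were computed within strains, after each strain's mean was taken from the log2 signals of the 10 arrays, and tested by an exact permutation of arrays within strains (14400 arrangements, two-sided). Of 28 gene pairs, 26 had a positive Pearson r, with a median of 0.50. BN array 3, the lowest BN array for all 8 genes, enters every pair, and pairs of other genes were not analysed here. A rank measure, written rho, was computed beside r. The deviations were ranked over the 10 arrays, the strain means of the ranks were removed, and the ranks were correlated. It is therefore not the plain Spearman coefficient. After Benjamini-Hochberg adjustment over the 28 pairs, 1 pair passed by r and 2 passed by rho. Eng and Vwf varied together at r = 0.82 (exact p = 0.000486, adjusted p = 0.0136) and rho = 0.89 (exact p = 0.000486, adjusted p = 0.0136), and r was 0.73 without the 2 arrays farthest from the Vwf median, LOU arrays 1 and 2. The receptor genes Tie1 and Flt1 reached r = 0.82 (exact p = 0.011, adjusted p = 0.102) and rho = 0.87 (exact p = 0.00236, adjusted p = 0.0331). Without BN array 3 and LOU array 2 their r was 0.35, so that relation rested on those 2 arrays. Likewise Tie1 and Vwf had r = 0.69 (exact p = 0.0298, adjusted p = 0.16) and rho = 0.73 (exact p = 0.0319, adjusted p = 0.149), and an r of −0.34 without the same 2 arrays. Without BN array 3 and LOU array 1, Eng and Vwf kept an r of 0.75 (exact p = 0.0122), and Tie1 and Flt1 had 0.68 (exact p = 0.168). Acvrl1 stood furthest from the others, with a median r of 0.09 to its 7 partners, against 0.41 to 0.68 for the other genes. With its co-receptor gene Eng it gave r = 0.09 (exact p = 0.817, adjusted p = 0.847) and rho = −0.07 (exact p = 0.862, adjusted p = 0.871), and r was 0.42 without BN array 2 and LOU array 2.

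Each of the 8 genes was then set against the mean of each of 11 marker lists of other cells, 88 relations in all, within strains. Of these, 8 had an unadjusted exact permutation p under 0.05 by r, and 0 passed Benjamini-Hochberg adjustment over the 88. The smallest p was that of Kdr with the mean of 7 adipocyte markers, at r = 0.89 (exact p = 0.00229, adjusted p = 0.122) and rho = 0.93 (exact p = 0.000833, adjusted p = 0.0733), and r was 0.91 without BN array 5 and LOU array 3. The adipocyte means were 0.59, 0.84, −0.34, 0.40 and −1.04 on BN arrays 1 to 5 and 0.72, 0.27, −0.80, −0.72 and 0.07 on LOU arrays 1 to 5. BN arrays 1 and 2 and LOU array 1, the 3 with the highest Kdr signals, had the 3 highest means. Summed signals of these markers ran from 2156 to 12125 in BN and from 2904 to 12095 in LOU. Of the 7, 6 (Slc2a4, Plin1, Pnpla2, Pck1, Lipe and Cfd) were above background on all arrays, and Lep was on none. Without BN array 3 and LOU array 1 the r of Kdr with the adipocyte mean was 0.88 (exact p = 0.00521). With the adipocyte mean as a covariate, chosen after seeing the data, Kdr differed between strains by 0.36 (adjusted p = 0.34). Brown adipocyte markers gave Kdr a similar r of 0.88 (exact p = 0.00278, adjusted p = 0.122, rho = 0.86, exact p = 0.00396, adjusted p = 0.174), and 0.97 without BN array 5 and LOU array 4. Acvrl1 had r = 0.84 with pericyte markers (exact p = 0.0117, adjusted p = 0.22, rho = 0.52, exact p = 0.152, adjusted p = 0.643), and 0.27 without BN array 3 and LOU array 1. Acvrl1 also had r = 0.80 with smooth muscle markers (exact p = 0.0136, adjusted p = 0.22, rho = 0.78, exact p = 0.0193, adjusted p = 0.425), and 0.79 without BN array 5 and LOU array 1. Vwf had r = 0.75 with fibroblast markers (exact p = 0.0125, adjusted p = 0.22, rho = 0.76, exact p = 0.019, adjusted p = 0.425), and 0.55 without BN array 5 and LOU array 2. Pecam1 had r = −0.74 with Schwann cell and nerve markers (exact p = 0.015, adjusted p = 0.22, rho = −0.57, exact p = 0.131, adjusted p = 0.643), and −0.25 without BN arrays 1 and 3. Kdr also had r = 0.64 with macrophage markers (exact p = 0.0398, adjusted p = 0.454, rho = 0.64, exact p = 0.0694, adjusted p = 0.643), and 0.52 without LOU arrays 1 and 5. Acvrl1 had r = −0.69 with lymphatic endothelium markers (exact p = 0.0413, adjusted p = 0.454, rho = −0.67, exact p = 0.0524, adjusted p = 0.643), and −0.36 without BN array 3 and LOU array 5. The part of cell makeup in these relations was not tested.

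**Figure D4:**
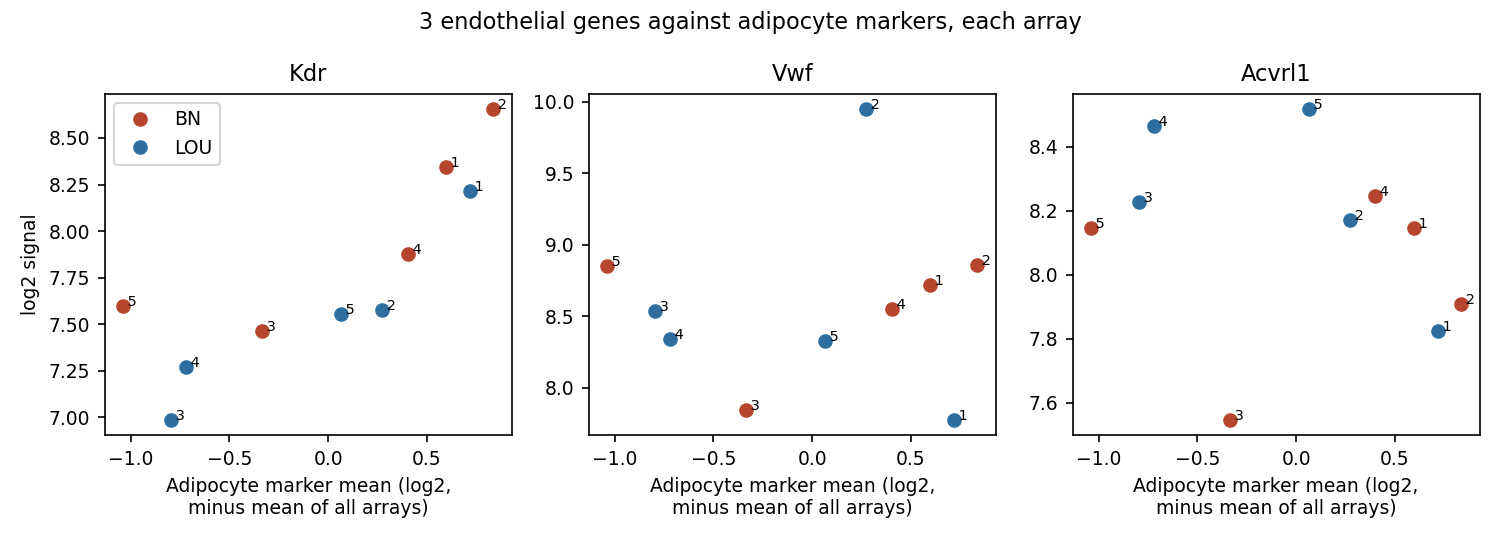
Log2 signal of Kdr, Vwf and Acvrl1 (vertical axes, which do not start at 0) against the mean of 7 adipocyte markers (log2, relative to the mean of all arrays), 1 point per array with its replicate number. Kdr runs upward with the marker mean in BN and in LOU, at r = 0.89 within strains, while r is 0.07 for Vwf and −0.21 for Acvrl1.

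The partners of these receptors were read from lists of pathway genes, each gene from its brightest probe set. Among 12 VEGF ligands, co-receptors and signalling genes, 0 passed limma's test (0 also at an unadjusted p of 0.05), with 5 positive and 7 negative differences and a median of −0.13. Vegfa, the main ligand of Kdr, averaged 382 ± 58.3 in BN and 335 ± 121 in LOU, a log2 difference of 0.24 (adjusted p = 0.689). Vegfb, a ligand of Flt1 and not of Kdr, was 234 ± 33.9 in BN and 294 ± 82.2 in LOU (−0.30, limma adjusted p = 0.557). Of 5 measured genes around the Tie receptors, again 0 passed (0 unadjusted, median −0.11), with Grb14, a receptor adaptor, at −0.21 and the transcription factor Foxo1 at 0.20. Among 16 genes of the ALK1 and endoglin pathway 0 passed and 2 had an unadjusted p under 0.05, with 5 positive, 11 negative and a median of −0.18. In 6 of the 21 alternatives, among them those without BN array 4 and without the dimmest 40%, 1 gene of this list passed. Tgfb1, the TGF-beta ligand, had the widest separation of that list, at 132 ± 20.1 in BN and 197 ± 8.79 in LOU with no overlap (log2 −0.59, adjusted p = 0.073). Smad6, an inhibitor of BMP signalling, differed by −0.42 (SE 0.37, adjusted p = 0.663).

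Genes of endothelial junctions, granules and gene control were no different in count. Of 18 junction genes 0 passed and 3 had an unadjusted p under 0.05, 9 in each direction, with a median of −0.03. The tight junction genes Ocln (0.44, adjusted p = 0.376) and Tjp1 (−0.39, adjusted p = 0.279) went opposite ways. Of 10 genes of Weibel-Palade bodies and von Willebrand factor partners 0 passed (0 unadjusted, median −0.09). Among them Plat, tissue plasminogen activator, differed by 0.24 and Rab27a, a GTPase of granule release, by −0.33 (adjusted p = 0.522 and 0.486 by limma). Of 31 other endothelial genes 0 passed and 2 had an unadjusted p under 0.05, with 15 positive, 16 negative and a median of −0.02. Podxl, a sialomucin of the luminal surface like Emcn, was 295 ± 57.6 in BN and 211 ± 20.1 in LOU (0.46, adjusted p = 0.237), and the scavenger receptor gene Stab1 differed by −0.54 (adjusted p = 0.428). Of 19 endothelial transcription factor genes 0 passed and 5 had an unadjusted p under 0.05, a rule that 13.3% of all probe sets met, with a median of −0.09. Meox2, a homeobox gene of vessel walls, was 117 ± 27.9 in BN and 202 ± 29.1 in LOU with no overlap (−0.82, limma adjusted p = 0.119). Klf2, which endothelial cells induce under laminar flow, was 556 ± 218 in BN and 871 ± 155 in LOU (−0.71, adjusted p = 0.281).

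Genes whose arrays followed the members most closely were then ranked. The measure was Pearson's r over the 10 arrays, strain means removed, to the median of the 8 members' brightest probe sets, over 7362 other genes above background on all arrays. The 8 highest were C11h21orf91 (r = 0.92), Cldn5 (0.91), Cmtm7 (0.90), Anapc1 (0.89), Ccdc85b (0.89), Arhgap18 (0.88), Ybx3 (0.88) and Rpl11 (0.87). Cldn5, the tight junction claudin of endothelium, averaged 388 ± 80.8 in BN and 388 ± 98.2 in LOU, with an adjusted p of 0.996 by limma. Ramp2, the adrenomedullin receptor partner, ranked 16 and Icam2, an endothelial adhesion molecule, ranked 18. Over the list of 27 other endothelial genes above background on all arrays the median r was 0.55 and 26 were positive, with Mcam at −0.19, while the median over all 7362 genes was 0.01. Medians were lower in the partner lists, at 0.17 for junctions, 0.19 for Weibel-Palade bodies and 0.20 for VEGF ligands and co-receptors. The Tie regulators were at 0.13 and the ALK1 and endoglin pathway at −0.07. Nos3, the endothelial nitric oxide synthase gene, gave r = 0.69 and S1pr1, the sphingosine phosphate receptor gene of endothelium, 0.71. The 14 endothelial transcription factor genes above background on all arrays had a median of 0.41, and 11 were positive. Among them the ETS genes Elk3, Erg, Ets2 and Ets1 gave 0.79, 0.45, 0.40 and 0.27. Gata2, Foxc1 and Mef2c were the negative ones, at −0.60, −0.20 and −0.10. Without BN array 3 the median of the 27 genes was 0.27 and that of all other genes −0.04, so much of this likeness came from the array on which all members were low.

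Likeness was not limited to endothelial genes. The 10 fibroblast markers had a median r of 0.58, with Cd248, a marker of perivascular fibroblasts and pericytes, at 0.82 and Pdgfra at 0.78. Pericyte markers had a median of 0.36 and adipocyte markers 0.33. Smooth muscle markers, the bulk of the wall, had a median of 0.04, and Schwann cell and nerve markers −0.10. These correlations share the same 10 arrays and their scaling, and are given as a description.

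**Figure D5:**
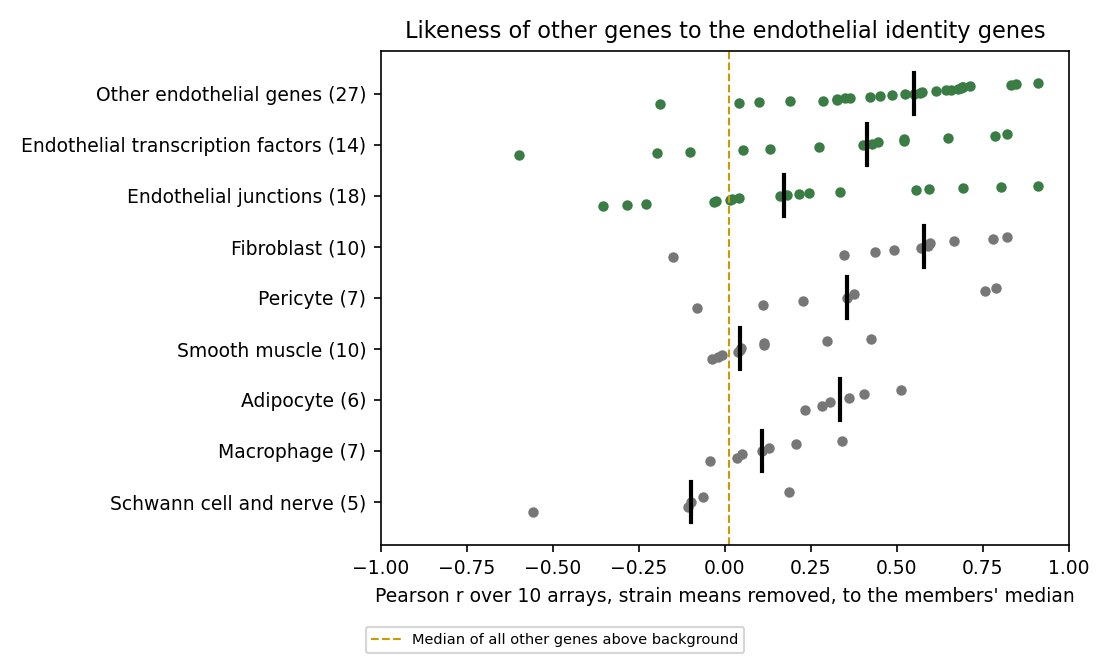
Pearson r of single genes to the members' median over 10 arrays, strain means removed, by gene list. The number of genes above background on all arrays is in parentheses. Points are genes, black bars list medians and the dashed line the median of all other genes, 0.01. Other endothelial genes (median 0.55) and fibroblast markers (0.58) lie mostly to the right, and smooth muscle markers (0.04) around the dashed line.

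Markers of other cells in the samples were compared between strains in the same way. Of 10 fibroblast markers 9 were negative, with a median of −0.65, and Ogn was the 1 that passed (1785 ± 571 in BN, 4977 ± 792 in LOU, limma adjusted p = 0.0171). By limma 6 of the 10 had an unadjusted p under 0.05, a rule that 13.3% of all probe sets met. No fibroblast marker passed without LOU array 2, 3 or 4, with the replicate number as a block, or without BN array 3 and LOU array 1, while 4 passed when the dimmest 40% were left out. Of 7 Schwann cell and nerve markers 6 were positive, with a median of 0.66, and Mbp was the 1 that passed (475 ± 195 in BN, 141 ± 46.5 in LOU, adjusted p = 0.046). Of these 7, 4 had an unadjusted p under 0.05 by limma. No nerve marker passed with the replicate number as a block, with signals floored at 32, or without BN array 3 and LOU array 1. The same held when any single array other than BN arrays 1 and 5 was left out. All 6 brown adipocyte markers were positive (median 1.30) and 9 of 10 smooth muscle markers were (median 0.25), among them Ucp1 at 1.4 and Fabp3 at 1.75, and Synpo2 at 0.69 and Des at 0.53, with 0 past limma's test and 3 at an unadjusted p under 0.05 in each list. The brown adipocyte median was 1.71 without BN array 3 and LOU array 1, and ran from 1.00 to 1.79 with 1 array left out. Only 3 of its 6 genes were above background on all arrays. The 7 pericyte markers had a median of −0.03, with Kcnj8 at −0.48 and Pdgfrb at −0.45. Of 4 platelet markers, which bear on Vwf and Pecam1 because platelets carry both products, 3 were positive and 1 was negative (median 0.03). The negative 1 was Pf4, at 157 ± 15.7 in BN and 272 ± 112 in LOU with no overlap (−0.71, limma adjusted p = 0.229), and Ppbp differed by 0.05. By array the platelet mean was highest on LOU array 2 (0.55), the array with the highest Vwf signal. Within strains Vwf had r = 0.53 with this mean (exact permutation p = 0.193, adjusted p = 0.709), and −0.23 without BN array 2 and LOU array 2. Markers of lymphatic endothelium had a median of −0.03, with Reln at 0.60 and Pdpn at 0.44. Of 4 erythroid markers 3 were negative, among them Hbb, a globin gene, at −0.97 (adjusted p = 0.254) and Alas2 at −0.76. All 7 macrophage markers were negative (median −0.36), with C1qb at −0.53 and Csf1r at −0.47, and their mean on LOU array 1 was above that of every other array. Without LOU array 1 that median was −0.15, and −0.10 without BN array 3 as well. Of 7 adipocyte markers 5 were positive (median 0.20), with Slc2a4 at 0.70 and Cfd at −0.50. That median ran from 0.01 without LOU array 3 to 0.45 without BN array 3, and was 0.66 without BN array 3 and LOU array 1. Of 7 lymphocyte markers 5 were negative (median −0.39, and −0.04 without LOU array 1), and Cd4 (0.04) alone was above background on all arrays. In the pericyte, platelet, lymphatic, erythroid, macrophage, adipocyte and lymphocyte lists 0 genes passed limma's test and 5 had an unadjusted p under 0.05. How far these cell shares bear on the members' values was not tested.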

How the data were processed

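Total RNA of BN and LOU abdominal aorta was labelled with biotin and hybridised to Affymetrix arrays, 5 per strain, per the labels' protocols, which mention thoracic aorta too in the extraction step. The authors' deposited table holds a linear intensity for each probe set, between 0 and 22219.9. RMA, with no version, is named in the submitters' processing notes, but a 2% trimmed mean near 200.05 on every array points to linear signals scaled to a common mean. The design assumed such a table, so log2(signal) was computed, with 4 values of 0 set to 0.1. Groups follow the array titles.

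Strains were compared with limma 3.58.1 in R 4.3.3 (lmFit, eBayes, strain as the only term, two-sided). The fit used 15866 probe sets, 57 controls not among them, and p-values were adjusted by Benjamini-Hochberg over all 15866. Symbols (12783 probe sets with 1 symbol, 312 with several, 2771 with none) were updated through RefSeq identifiers. All probe sets of the members are named. From each list up to 4 genes past the test are named, or else the 2 with the largest difference among those above background on all arrays, and the 8 genes most like the members. Genes named beside these (Sox17, Ramp2, Icam2, Mcam, Nos3, S1pr1, Elk3, Erg, Ets2, Ets1, Gata2, Foxc1, Mef2c, Cd248, Pdgfra and the adipocyte markers) were picked with their values in view. The members and lists were chosen with earlier results of these data known. Signal over background and the number of arrays limit precision. The fit was tested on simulated data. Alternatives were other scalings, filters, weights, a replicate block and arrays left out. Python 3.11.15 with pandas 2.3.3 and matplotlib 3.10.9 made summaries and plots.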

Additional observations from a re-analysis of the deposited data

Results flagged for a closer look

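The Vwf signal of 987.5 on LOU array 2 lay far from the other 4 LOU arrays. Its gap to the nearest of them was 0.80 of the whole LOU range, above the 95% critical value of 0.71 for 5 samples, and on the log2 scale the gap was 0.65 of the range, below it. It was the 1 such case among 20 groups of 5 arrays, where chance alone gives about 1 in 20.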

How the results depend on the processing

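The count of member probe sets past the test was 0 in each of the 21 alternatives, with a smallest adjusted p of 0.262. The count over all probe sets, 125, was 253 without the dimmest 40%, 242 with a variance trend, 204 with a pseudocount of 16, 263 when dim probe sets were left out by the bacterial controls, 75 without BN array 3 and LOU array 1, and 23 with the replicate number as a block, of which 19 were among the 125. The block changed no member's call. Deviations of same-numbered arrays correlated at r from −0.05 to 0.01, so the numbers were not taken as a pairing. Leaving out 1 array gave 63 to 127, with 67 and 79 without BN arrays 2 and 4 and 65, 63, 75 and 78 without LOU arrays 2, 3, 4 and 5. The sign of Vwf, −0.02, turned with median centring (0.028) and ranged from −0.22 to 0.32 with 1 array left out. Flt1 1377113_at, at 0.01, was −0.056 with the adipocyte covariate and −0.16 to 0.23 with 1 array left out. The other 8 member probe sets kept their sign in every alternative in which they were tested. With 1 array left out the r of Eng and Vwf ran from 0.71 to 0.90, that of Kdr and the adipocyte mean from 0.86 to 0.93, and that of Tie1 and Flt1 from 0.66 to 0.89, with an exact p of 0.0924 without BN array 3 and 0.0587 without LOU array 2. Alternatives for these correlations were chosen after seeing the data. Counts of genes past the test in the lists moved in 29 of 378 values, within the ALK1 and endoglin, transcription factor, fibroblast, nerve and lymphocyte lists. The fibroblast count ran from 0 to 4 and the nerve count from 0 to 2, each against 1. The cause of each change was not tested, except that filters and arrays left out change what is tested by construction. Dim signals limit the 2 dimmer Flt1 probe sets most.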

Other observations

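Each member was also set against the other 7 on the same array, as its log2 signal minus the median of the others, all relative to their mean over 10 arrays. On this scale Acvrl1 averaged −0.19 ± 0.22 in BN and 0.14 ± 0.49 in LOU (SD, n = 5 each). Pecam1 averaged −0.18 ± 0.38 in BN and 0.17 ± 0.37 in LOU, and Kdr 0.19 ± 0.36 in BN and −0.21 ± 0.51 in LOU. The BN and LOU values overlapped for all 3. Tie1 stayed closest to the others, at 0.01 ± 0.09 in BN and −0.03 ± 0.13 in LOU.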
